A study of Mus musculus with 4 samples.

Results

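Transcript levels of 10 mouse genes, Ctcf and 9 genes of the cohesin complex, were compared between cultures labelled iMOP-derived neurons and cultures labelled proliferating iMOPs. The genes were taken by name, as the insulator factor Ctcf together with the cohesin core, loader and release genes Rad21, Smc1a, Smc3, Stag1, Stag2, Nipbl, Wapl, Pds5a and Pds5b. All 10 were found among the 49997 gene rows, each under 1 row, and all 10 had enough counts to be tested. iMOP cells are mouse otic progenitors, the precursors of inner ear neurons and sensory cells, grown as an immortalized line, and all libraries carry the wild-type genotype label. The neuron group had 2 libraries, from cells in Neurobasal medium with N21, L-glutamine and 1 µM K03861, which blocks CDK2, a kinase that drives the cell cycle. The proliferating group had 2 libraries, from cells in DMEM/F12 with N21, carbenicillin and 20 ng/ml bFGF, a growth factor. The libraries of each group are numbered 1 and 2, and the labels do not say whether they came from separate cultures, so the p-values measure only the spread between these samples, which may be technical. Total RNA was depleted of ribosomal RNA and made into stranded libraries. The title of the series concerns binding of the remodeller CHD7 at insulators, which are sites where CTCF and cohesin act.

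CTCF is a zinc finger protein that binds DNA at insulators and at the borders of chromatin loops. Cohesin is a ring of SMC1A, SMC3 and RAD21 to which STAG1 or STAG2 is bound. It holds sister chromatids together from replication until mitosis, and outside mitosis it extrudes loops of chromatin that stop at bound CTCF. NIPBL loads the ring and drives extrusion, WAPL releases it, and PDS5A or PDS5B acts with WAPL in release and also helps to keep the ring on chromatin. In neurons, which no longer divide, cohesin is known for its part in loops between enhancers and promoters.

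The promoters of Ctcf and of the SMC core genes are shown first, because the fold changes of the 9 cohesin genes had one sign and that of Ctcf the other, though none passed the test. RefSeq entries (GRCm38.p6) were found for 7 of the 10 genes. The sequences are the 250 bases before each annotated start, with capitals marking CCCTC, the pentamer that CTCF is named after, and CCAAT, the box bound by NF-Y, on either strand. They lie at chr8:105636288-105636537 for Ctcf, chrX:152016178-152016427 for Smc1a and chr19:53600146-53600395 for Smc3, each on the plus strand.
Ctcf: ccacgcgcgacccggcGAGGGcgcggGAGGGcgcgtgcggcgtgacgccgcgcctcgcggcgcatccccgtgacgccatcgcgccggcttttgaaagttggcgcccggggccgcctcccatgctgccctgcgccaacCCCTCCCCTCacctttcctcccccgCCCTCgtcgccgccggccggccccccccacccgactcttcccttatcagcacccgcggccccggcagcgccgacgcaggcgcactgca
Smc1a: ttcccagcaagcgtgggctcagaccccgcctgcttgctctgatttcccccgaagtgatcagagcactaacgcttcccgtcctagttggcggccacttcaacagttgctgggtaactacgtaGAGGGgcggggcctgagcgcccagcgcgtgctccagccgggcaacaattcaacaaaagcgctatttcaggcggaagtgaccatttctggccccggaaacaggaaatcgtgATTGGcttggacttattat
Smc3: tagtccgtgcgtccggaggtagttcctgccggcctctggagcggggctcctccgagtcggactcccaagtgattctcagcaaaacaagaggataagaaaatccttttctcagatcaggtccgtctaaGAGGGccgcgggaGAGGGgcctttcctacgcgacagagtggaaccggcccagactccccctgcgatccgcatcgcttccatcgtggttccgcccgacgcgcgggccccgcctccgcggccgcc
CCCTC occurred at 5 places in the Ctcf window, at 1 in that of Smc1a and at 2 in that of Smc3. It occurred in 5 of the 7 windows, and in 60.5% of the 32851 windows of all genes. CCAAT occurred in the Smc1a window and in neither of the others shown, in 4 of the 7 windows and in 33.9% of all windows. GGCGGGAA, a form of the E2F site, occurred in 1 of the 7 windows, that of Pds5a, where it overlapped no match of the others, and in 1.86% of all windows. G and C made up 77.6% of the Ctcf window, 56.8% of that of Smc1a and 64.4% of that of Smc3.

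Outside 7 ribosomal RNA and rRNA-like genes, 3241915 and 617872 counts remained in the neuron libraries and 292302 and 614465 in the proliferating libraries. Libraries of the same number were more alike than those of the same group, with a Pearson correlation of log2 CPM across genes of 0.78 between the libraries numbered 1 and 0.82 between those numbered 2, against 0.50 between the neuron and 0.40 between the proliferating libraries. Division and neuron markers went against the labels, while the otic progenitor markers did not as a sum, to which Sox2 added most. The summed level of 10 division markers was 2101 and 4908 CPM in the neuron libraries and 244 and 757 CPM in the proliferating libraries. All 10 were higher in both neuron libraries than in either proliferating library, a pattern that 9.41% of all tested genes showed. The summed level of 10 neuron markers was 1472 and 1523 CPM in the neuron libraries, against 2495 and 2861 CPM in the proliferating libraries. Map2 added most to this sum. Dcx differed, with 247 and 211 CPM in the neuron libraries and 166 and 262 CPM in the proliferating libraries. Of the 7 tested, 3 were lower in both neuron libraries than in either proliferating library, against 8.50% of all tested genes. The groups are therefore named by their labels only. Whether the labels were exchanged between files was not tested, and an exchange would turn the sign of every difference between the groups. Otic progenitor markers summed to 276 and 348 CPM in the neuron libraries and 465 and 734 CPM in the proliferating libraries, with Pax8, Neurog1 and Isl1 at 0 counts throughout. Sox2 alone had 123 and 201 CPM in the neuron libraries and 342 and 458 CPM in the proliferating libraries. The other 2 of the 3 tested, Jag1 and Eya1, were higher in neuron 1 than in proliferating 1, and lower in neuron 2 than in proliferating 2. Glial markers summed to 221 and 390 CPM in the neuron libraries, against 752 and 436 CPM in the proliferating libraries, with Sox10 at 0. The 4 tested glial markers did not go one way. Aqp4 was higher in both neuron libraries than in either proliferating library, and Olig1 and Olig2 were lower. Gfap was lower in neuron 1 than in proliferating 1, and higher in neuron 2 than in proliferating 2. Hair cell markers summed to 29.0 and 16.6 CPM in the neuron libraries and 19.5 and 18.3 CPM in the proliferating libraries, with Pou4f3 and Otof at 0. Mesenchyme markers summed to 218 and 147 CPM in the neuron libraries, against 254 and 486 CPM in the proliferating libraries, with Col1a2 at 0. The part of division or of these cell types in the results below was not tested. In bulk RNA, fewer cells of a type and less RNA per cell cannot be told apart.

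None of the 10 genes differed between the groups beyond the spread between libraries. The 9 cohesin genes were all higher on average in the neuron libraries, with log2 fold changes between 0.66 for Rad21 and 2.03 for Stag2, and Ctcf was slightly lower, at -0.30. The standard errors ran between 0.94 and 1.22 on the log2 scale (n = 2 libraries per group), and the adjusted p-values of edgeR's quasi-likelihood test were all 0.9996. Of all 9009 genes tested, 0% were called higher and 0% lower in that fit, 97 (1.08%) had an unadjusted p under 0.05, and 48.5% had a positive log2 fold change. None of the 10 genes was among those 97. With the replicate number as a term in the model, 0.644% of the genes were called higher and 0.322% lower, and 0 of the 10. DESeq2 with group alone also called 0 genes, with 190 under that unadjusted p among 23761 genes. The median log2 fold change was 1.39 over the 10 genes and -0.03 over all tested genes. Without neuron 2 the median over the 10 genes was 0.024, with 5 of 10 above 0. That fit sets neuron 1 against both proliferating libraries, though libraries of the same number were more alike. For neuron 1 over proliferating 1 alone, less the median of all tested genes, the median log2 ratio was 0.65, with 9 of 10 above 0. In the fit without neuron 2, Rad21, Smc1a, Stag1 and Pds5a had log2 fold changes of 0.11, 0.16, 0.51 and 0.56. Ctcf was at -0.18, and the values of the other 5 are given with each gene.

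**Figure D1:**
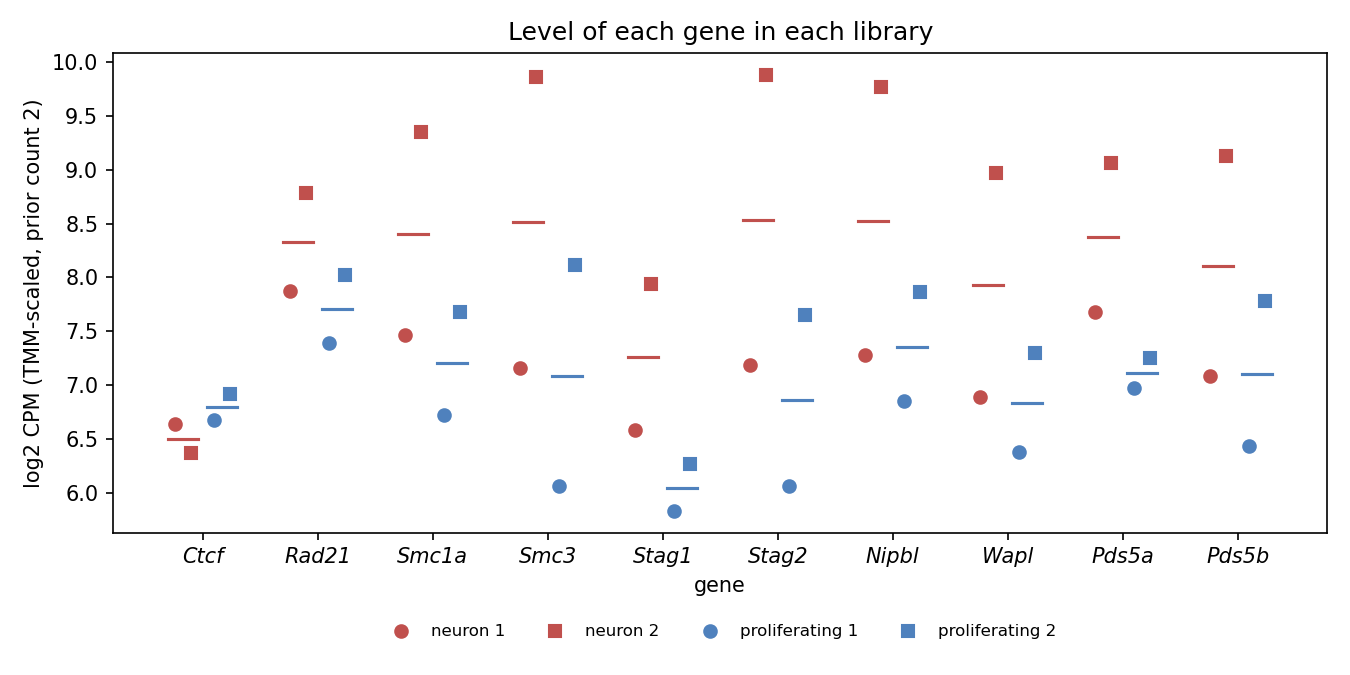
Level of each of the 10 genes in each library, as log2 CPM after TMM scaling, with circles for libraries numbered 1, squares for those numbered 2, and bars for the mean of each group of 2. Neuron 2 is the highest library for each of the 9 cohesin genes, and for Ctcf it is the lowest.

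Ctcf lies on chromosome 8 (105636568 to 105682922, plus strand, mm10). It had 368 and 39 counts in the neuron libraries, against 31 and 65 in the proliferating libraries, which is 97.9 and 80.8 CPM in the neuron libraries and 101 and 119 CPM in the proliferating libraries after scaling. Both neuron libraries lay below both proliferating libraries, as they did for 8.50% of all tested genes, but by less than the standard error of 0.94. The level of Ctcf was the steadiest of the 10, with an SD of 0.19 on the log2 scale in the neuron libraries and 0.17 in the proliferating libraries. The fold change of -0.30 turned positive on the authors' RPKM scale, where it was 0.75 on log2(RPKM + 0.1), against a median of 0.81 over all genes on that scale. The counting strand setting is not given in the sources used here, and 3 annotated genes lie antisense to Ctcf, of which the highest, Gm5915, had 17 counts in the 4 libraries together.

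The 3 ring subunits were higher in neuron 2 than in any other library. Rad21 encodes the kleisin that closes the ring and that separase cuts in mitosis (chromosome 15, 51962240 to 51991747). It had 874 and 212 counts in the neuron libraries and 51 and 141 in the proliferating libraries, or 233 and 439 CPM against 166 and 259 CPM in the proliferating libraries. The groups overlapped, since proliferating 2 was above neuron 1, and the log2 fold change was 0.66 (SE 1.00). Smc1a encodes one of the pair of coiled-coil ATPases that form the arms of the ring (chromosome X, 152016428 to 152062694). It had 656 and 314 counts in the neuron libraries and 32 and 111 in the proliferating libraries, or 175 and 651 CPM against 104 and 204 CPM in the proliferating libraries. Its log2 fold change was 1.42 (SE 1.08), and again proliferating 2 lay above neuron 1. Smc3 encodes the other arm (chromosome 19, 53600398 to 53645833), whose acetylation locks the ring on sister chromatids. It had 532 and 449 counts in the neuron libraries and 20 and 150 in the proliferating libraries, or 142 and 931 CPM against 65.1 and 275 CPM in the proliferating libraries. Its spread within a group, with an SD of 1.91 in the neuron and 1.45 in the proliferating libraries on the log2 scale, was similar in size to its log2 fold change of 1.65 (SE 1.22). Without neuron 2 that value was -0.30.

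The STAG subunits bind the ring and contact CTCF, and a cohesin complex holds either STAG1 or STAG2. Stag2 (chromosome X, 42149317 to 42277185) had the largest fold change of the 10, at 2.03 on the log2 scale (SE 1.20). It had 542 and 455 counts in the neuron libraries and 20 and 109 in the proliferating libraries, or 144 and 943 CPM against 65.1 and 199.9 CPM in the proliferating libraries. Neuron 1 lay below proliferating 2, so the groups overlapped, and without neuron 2 the value was 0.09. Stag1 (chromosome 9, 100597798 to 100959375) had 353 and 118 counts in the neuron libraries and 17 and 41 in the proliferating libraries. Its levels were 93.9 and 245 CPM in the neuron libraries and 55.3 and 75.2 CPM in the proliferating libraries, with no overlap between the groups. Its log2 fold change was 1.36 (SE 1.00).

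Nipbl, the loader, and Wapl, the release factor, showed much the same pattern over the libraries, with the CPM of Nipbl higher in each. Nipbl (chromosome 15, 8290617 to 8444463) had 577 and 421 counts in the neuron libraries and 35 and 126 in the proliferating libraries, or 154 and 873 CPM against 114 and 231 CPM in the proliferating libraries. Its log2 fold change was 1.57 (SE 1.14), and -0.19 without neuron 2. Wapl (chromosome 14, 34673928 to 34747983) had 440 and 242 counts in the neuron libraries and 25 and 85 in the proliferating libraries, or 117 and 502 CPM against 81.3 and 156 CPM in the proliferating libraries. Its log2 fold change was 1.37 (SE 1.07), and -0.042 without neuron 2. For both genes neuron 2 stood highest, and proliferating 2 lay above neuron 1, so the groups overlapped.

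Pds5a and Pds5b encode paralogous HEAT repeat proteins that bind RAD21. Pds5a (chromosome 5, 65605721 to 65698273) had 764 and 258 counts in the neuron libraries and 38 and 82 in the proliferating libraries, or 203 and 535 CPM against 124 and 150 CPM in the proliferating libraries. Its groups did not overlap, and its log2 fold change was 1.42 (SE 1.03). Pds5b (chromosome 5, 150673739 to 150810690) had 505 and 270 counts in the neuron libraries and 26 and 119 in the proliferating libraries, or 134 and 560 CPM against 84.6 and 218 CPM in the proliferating libraries. Its groups overlapped, and its log2 fold change was 1.19 (SE 1.09), or -0.20 without neuron 2. Stag1 and Pds5a were thus the 2 of 10 genes with both neuron libraries above both proliferating libraries, a pattern that 9.41% of all tested genes showed.

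Per length, as CPM after scaling divided by gene length in kilobases, Stag1 was the lowest of the 10, and the order of the others differed between libraries. Averaged over the 4 libraries, a mean to which neuron 2 adds most for each gene but Ctcf, the levels were 72.8 for Smc3, 71.4 for Smc1a and 67.8 for Rad21. They were 41.4 for Stag2, 32.7 for Pds5b, 30.0 for Nipbl, 28.1 for Pds5a and 27.1 for Wapl. They were 20.6 for Ctcf and 5.29 for Stag1. Stag1 was the lowest in each of the 4 libraries, while the ranges of all other neighbours in this order overlapped. Rad21 was the highest in neuron 1, proliferating 1 and proliferating 2, at 57.5, 41.0 and 63.9, and Smc3 in neuron 2, at 192. Stag2 in neuron 2, at 115.5, was above Rad21 at 108.6, and Smc3 in proliferating 1, at 13.4, was below Ctcf at 20.8. The length behind the authors' RPKM is 22149 bases for Stag1, against 6186 bases for its longest annotated protein-coding transcript, so its level per length is lower than that transcript would give.

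Because the libraries differed by number, the groups were also compared within each number, as the log2 ratio of neuron over proliferating less the median ratio of all tested genes. All 9 cohesin genes were above 0 in both numbers, and Ctcf was below 0 in both. For comparison, 27.4% of all tested genes were above 0 in both and 27.4% below 0 in both. Among the libraries numbered 1 the cohesin ratios ran between 0.39 for Nipbl and 1.10 for Stag2, and among those numbered 2 between 0.79 for Rad21 and 2.26 for Stag2. The ratio was larger among the libraries numbered 2 for 9 of the 9 cohesin genes, a pattern that 49.6% of tested genes showed. Ctcf had ratios of -0.07 (95% interval -0.61 to 0.50) and -0.53 (-1.15 to 0.06). These exact intervals cover counting error only. They lay above 0 for 7 of the 10 genes among the libraries numbered 1, where those of Ctcf, Nipbl and Wapl held 0, and for 9 of 10 among those numbered 2, where that of Ctcf held 0. With 1 library per group within each number, these ratios have no replicate check.

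**Figure D2:**
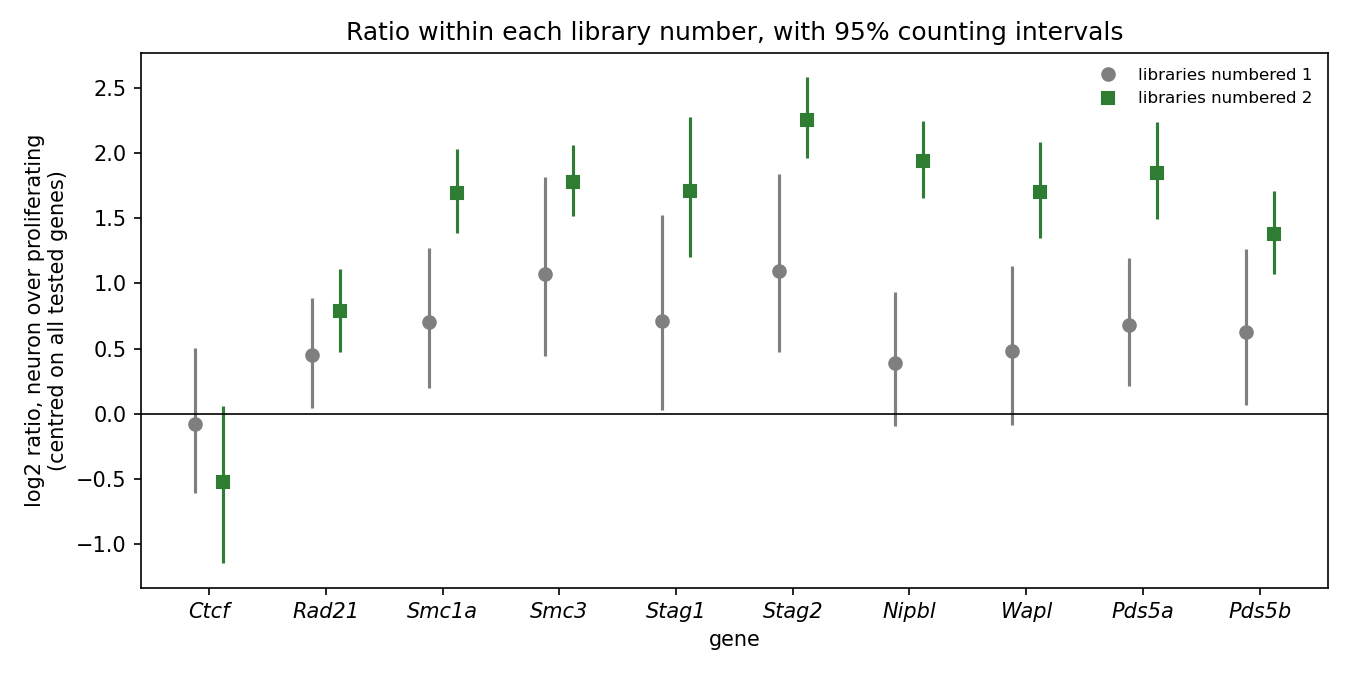
Log2 ratio of neuron over proliferating for each gene within the libraries numbered 1 (circles) and 2 (squares), less the median ratio of all tested genes, with lines for 95% exact intervals of counting error. The 9 cohesin genes lie above 0 in both numbers and higher in number 2, while Ctcf lies below 0 with intervals that hold 0.

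The ratios varied with the GC content of the transcripts across all genes, and the cohesin genes are poor in GC. The GC content was 46.4% for Ctcf and 46.9% for Smc1a, and between 38.1% for Stag2 and 44.3% for Rad21 for the others, against a median of 48.8% over all tested genes. The tested genes were divided into 3 equal classes by GC content. Among the 2885 genes of the lowest class the median ratio was 0.30 in the libraries numbered 1 and 0.67 in those numbered 2, and 49.4% were above 0 in both. That class held 8 of the 10 genes, all but Ctcf and Smc1a, and 8 of 8 were above 0 in both. After a GC correction, which was added after the data were examined, the 9 cohesin genes still had ratios above 0 in both numbers, as had 25.5% of all genes. Their ratios then ran between 0.07 for Nipbl and 0.74 for Smc3 in number 1, and between 0.37 for Rad21 and 1.65 for Smc1a in number 2. The median over the 9 was 0.37 in number 1 and 1.10 in number 2. No counting intervals were made for the corrected ratios, so whether they lie above 0 beyond counting error was not tested. With group alone in the model, the log2 fold changes of the 9 cohesin genes after this correction ran between 0.26 for Rad21 and 1.27 for Smc1a, and that of Ctcf was -0.41. The median over the 10 genes, 1.39 without the correction, was 0.71 with it.

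The share of Ctcf in the reads of the 10 genes does not depend on the scaling between libraries, and is uncorrected for GC content. Within each number, Ctcf took a smaller share in the neuron library. It took 6.56% in neuron 1 (95% exact binomial interval 5.92 to 7.24) and 1.40% in neuron 2 (1.00 to 1.91). It took 10.5% in proliferating 1 (7.25 to 14.6) and 6.32% in proliferating 2 (4.91 to 7.98). The share was lower in the neuron library of each number, while neuron 1 and proliferating 2 were alike within their intervals. A two-sided exact permutation test of 2 against 2 libraries cannot go below p = 0.333, so no test was made. Smc1a is the cohesin gene nearest to Ctcf in GC content, and was chosen for this ratio after its values were seen. The ratio of Ctcf to Smc1a counts was 0.561 in neuron 1 and 0.124 in neuron 2, against 0.969 in proliferating 1 and 0.586 in proliferating 2. It was thus lowest in neuron 2 and highest in proliferating 1, with neuron 1 and proliferating 2 close to each other. On the log2 scale the neuron minus proliferating difference of this ratio was -0.79 in number 1 and -2.24 in number 2. The ratio of Ctcf to Rad21 counts was 0.421 and 0.184 in the neuron libraries and 0.608 and 0.461 in the proliferating libraries. The order of libraries was the same. That of Ctcf to Smc3 counts was 0.692 and 0.0869 in the neuron libraries and 1.55 and 0.433 in the proliferating libraries. For Smc3 the order differed, since neuron 1 lay above proliferating 2, so the groups overlapped.

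The balance within pairs of paralogues followed the library number more than the group. Per length, Stag2 made up 80.6% of Stag1 and Stag2 together in neuron 1 (95% exact binomial interval 78.4 to 82.7) and 91.3% in neuron 2 (89.5 to 92.8). It made up 76.1% in proliferating 1 (61.4 to 86.6) and 87.8% in proliferating 2 (83.3 to 91.4). Both libraries numbered 2 were above both numbered 1, and within each number the intervals of the groups overlapped. The size of these shares depends on the length of 22149 bases used for Stag1, whose longest coding transcript has 6186 bases. By counts alone, Stag2 made up 60.6% and 79.4% in the neuron libraries and 54.1% and 72.7% in the proliferating libraries, with the same order. Pds5b made up 43.8% of Pds5a and Pds5b per length in neuron 1 (41.0 to 46.6) and 55.3% in neuron 2 (50.9 to 59.5). It made up 44.7% in proliferating 1 (32.01 to 57.7) and 63.1% in proliferating 2 (56.2 to 69.7). Again the libraries numbered 2 were the higher ones, and the intervals of the groups overlapped in each number. The ratio of release factor to loader, Wapl to Nipbl counts, was 0.763 and 0.575 in the neuron libraries and 0.714 and 0.675 in the proliferating libraries. It changed less between libraries than the other ratios. The ratio of Smc1a to Smc3 counts, whose proteins pair in equal numbers in the ring, was 1.23 and 0.699 in the neuron libraries and 1.60 and 0.740 in the proliferating libraries, and so also followed the number.

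**Figure D3:**
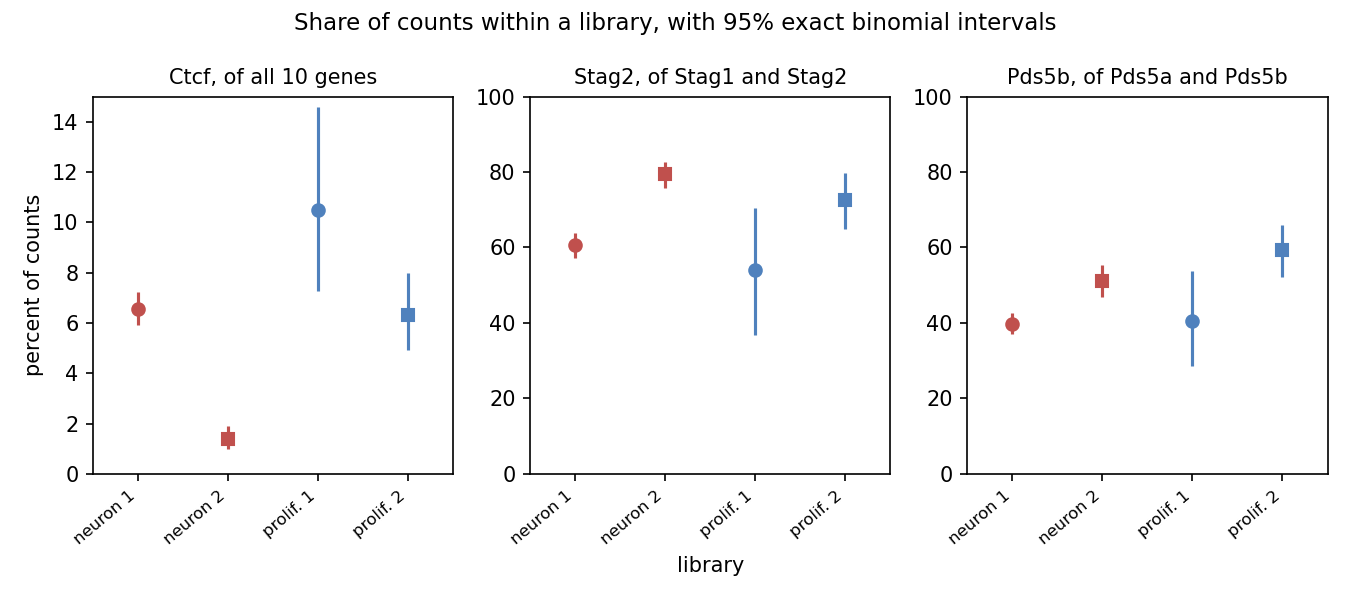
Share of counts within each library, with no length correction, for Ctcf among the 10 genes, Stag2 among Stag1 and Stag2, and Pds5b among Pds5a and Pds5b, with lines for 95% exact binomial intervals. The Ctcf share is lowest in neuron 2 at 1.40%, while the Stag2 and Pds5b shares are higher in the libraries numbered 2 of both groups.

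Other genes of the cohesin cycle were taken from a list of 15, of which 9 had enough counts to be tested. With group alone, 0 were called in either direction, with 0% of all genes called, and 2, Sgo2a and Sgo1, had an unadjusted p under 0.05, against 1.08% of all genes. The log2 fold change was positive for 8 of 9, against 48.5% of all genes, with a median of 1.94. Sgo2a, which shields cohesin at centromeres from separase, had 161 and 110 counts in the neuron libraries and 0 and 14 in the proliferating libraries, with a log2 fold change of 3.28 (SE 1.42). Esco2, the acetyltransferase that establishes cohesion in S phase, had 99 and 52 counts in the neuron libraries and 0 and 8 in the proliferating libraries, with a log2 fold change of 3.03 (SE 1.44). Fitted values of genes with a library at 0 depend on the prior count. Both genes were higher in each neuron library than in either proliferating library. They were among 4 of the 9 tested genes with this pattern, against 9.41% of all tested genes. Mau2, the partner of NIPBL in the loader, was chosen after its values were seen as the 1 gene of the 9 below 0. It had 407 and 24 counts in the neuron libraries and 58 and 33 in the proliferating libraries, with a log2 fold change of -0.64 (SE 1.02), so the fold changes of the loader's subunits had opposite signs, neither past the test. The meiotic genes Smc1b and Rad21l had 0 counts in every library.

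Of 17 genes known as partners of CTCF or as other architectural factors, 16 were tested, 0 were called and 0 had an unadjusted p under 0.05, against 1.08% of all genes. The log2 fold change was positive for 6 of 16, against 48.5% of all genes, with a median of -0.34. Ddx5, an RNA helicase that binds CTCF, had 2125 and 940 counts in the neuron libraries and 171 and 1659 in the proliferating libraries, with a log2 fold change of -0.52 (SE 1.28). Smarca5, the ISWI remodeller that helps CTCF to bind, had 873 and 678 counts in the neuron libraries and 47 and 340 in the proliferating libraries, with a log2 fold change of 1.07 (SE 1.23). Ctcfl, the germline paralogue of Ctcf, had 0 counts in every library. Of 15 genes of the other SMC complexes, condensin and SMC5/6, with Smchd1, 14 were tested, 0 were called and 2 had an unadjusted p under 0.05, against 1.08% of all genes. The log2 fold change was positive for 11 of 14, against 48.5% of all genes, with a median of 1.77. The condensin genes Smc2, Ncapg and Ncapg2 were at 2.58 (SE 1.20), 3.27 (SE 1.30) and 2.61 (SE 1.05). Smc2 had 569 and 360 counts in the neuron libraries and 9 and 65 in the proliferating libraries. Within the numbers, the medians of the lists were 1.85 and 2.22 for the other cohesin genes, -0.19 and -0.47 for the CTCF partners and 1.20 and 1.72 for the other SMC genes, against 0.65 and 1.70 for the 10 genes. The division markers, whose median was 3.09 and 2.10, were higher in the same libraries.

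**Figure D4:**
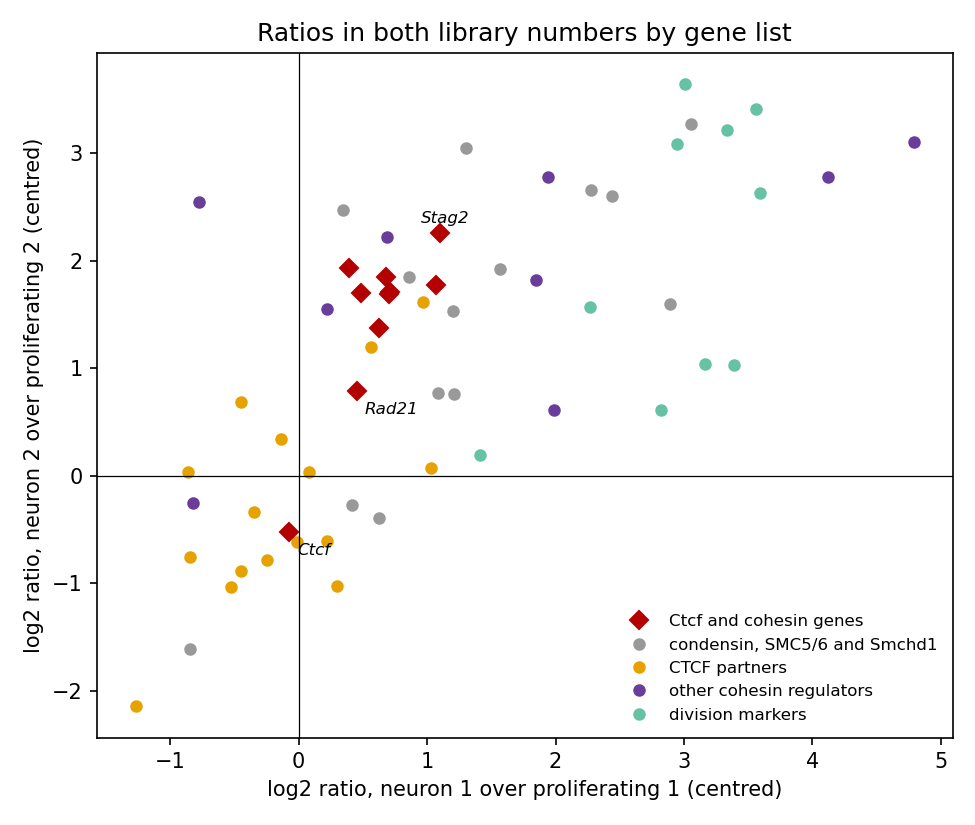
Centred log2 ratio of neuron over proliferating in the libraries numbered 1 (horizontal) and 2 (vertical), 1 point per tested gene, coloured by gene list. The 9 cohesin genes lie together in the upper right, with most other cohesin, SMC and division genes. Ctcf lies in the lower left, at -0.07 on the horizontal axis. Of the 16 CTCF partners 7 lie in the lower left and 4 in the upper right, against 27.4% of all tested genes in each.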

How the data were processed

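RNA was sequenced from 4 libraries, 2 labelled neuron and 2 labelled proliferating. The submitters' processing notes name the build mm10 and the programs DESeq2, featureCounts, HISAT2 and SAMtools. Versions, settings, annotation and strand setting are not given in the sources used here. The authors deposited raw counts per gene and RPKM values. Counts divided by RPKM and library total gave 1 gene length per gene (relative tolerance 0.001) for 9098 of 9098 genes with at least 10 counts in 2 or more libraries, so the RPKM totals include ribosomal RNA.

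The 7 rRNA-like genes mt-Rnr1, mt-Rnr2, Rn18s-rs5, AY036118, Gm15564, Mir6236 and Lars2 were set aside. They took 88.2% and 92.6% of the neuron counts and 90.7% and 98.1% of the proliferating counts. A count of 0 allows, at 3 counts, up to 0.925 and 4.86 CPM in the neuron libraries and 10.3 and 4.88 CPM in the proliferating libraries, for counting error only. Counts were tested with edgeR 4.0.16 in R 4.3.3 (quasi-likelihood test, TMM scaling, filterByExpr, group alone, Benjamini-Hochberg threshold 0.05 over 9009 genes). DESeq2 1.42.0 and limma 3.58.1 were alternatives. CPM values use TMM-scaled sizes, and log2 CPM a prior count of 2. GC content is that of the longest GENCODE M21 transcript, available for 96.1% of tested genes, and the GC and length corrections subtract a spline with 5 degrees of freedom. Of the 50-base stretches of each gene's longest coding transcript, at most 2.62% (Pds5a) occurred in other annotated genes.

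The genes and lists were chosen with earlier results of these data known. All 10 genes are named. For the other cohesin, CTCF partner and other SMC lists, the genes called in either edgeR fit are named. Where none was called, the 2 highest by mean level are named, with exceptions stated. The marker lists were outside this rule.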

Additional observations from a re-analysis of the deposited data

How the results depend on the processing

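The 10 genes had 0 calls under each of the 20 alternative settings, which in so small a design does not show stability. Of their 200 log2 fold changes under these settings, 194 kept their sign and 6 reversed. Ctcf was at 0.75 on log2(RPKM + 0.1) and 0.40 on log2(RPKM + 1), where the medians of all genes were 0.81 and 0.34. Leaving out each library in turn gave values between -0.30 and 3.07 for Smc3, -0.19 and 2.29 for Nipbl, -0.042 and 2.03 for Wapl and -0.20 and 2.07 for Pds5b, and between 0.024 and 1.99 for the median of the 10 genes, each time lowest without neuron 2. The cause was not tested. The labels state no batch shared by a replicate number, so the fit with the replicate block is an alternative. Deviations from the group means correlated at 0.74 across genes between libraries of the same number. With the replicate block, which leaves 1 residual degree of freedom, edgeR called 58 genes higher and 29 lower (0.644% and 0.322% of 9009), among them 0 of the 10 genes, of which 5 had an unadjusted p under 0.05, as had 894 of all genes. The lowest adjusted p was that of Stag2 (log2 fold change 1.73, SE 0.62, adjusted p = 0.196), and that of Ctcf was 0.958 (-0.30, SE 0.60). Of the other cohesin genes, Sgo2a and Esco2 were called higher in that edgeR fit (adjusted p = 0.00463 and 0.0372). Of the other SMC genes, Smc2, Ncapg and Ncapg2 were called higher (0.0215, 0.00696 and 0.0372). So were 5 of 10 division markers, Cenpf, Mki67, Top2a, Bub1 and Kif11 (adjusted p between 0.00090 and 0.00427). Of the glial markers, Aqp4 was called higher and Olig1 and Olig2 lower, and of the neuron markers Stmn2 was called lower. With the block, edgeR called 8 higher and 9 lower genes after the GC correction and 107 and 76 after the length correction, and DESeq2 called 39 and 29. The median of the 10 genes was 1.21 with the block and 0.67 with the block and GC correction. Without the length correction, the share of Stag2 was 60.6% and 79.4% in the neuron libraries and 54.1% and 72.7% in the proliferating libraries. The corrections with group alone were added after the data were examined. Depth limits the values of genes with few counts, such as the 17 counts of Stag1 in proliferating 1 and the 39 of Ctcf in neuron 2.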

Other observations

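Among 5692 tested genes whose mean log2 CPM reached 5, the 5 whose log2 CPM, centred per gene over the 4 libraries, lay nearest to that of Ctcf were Heatr5a, Amotl1, Ddah1, Kif3b and Hadh. Their Euclidean distances ran between 0.081 and 0.128 on the log2 scale, against a median of 1.47 over all these genes. Heatr5a had log2 CPM values of 5.73 and 5.36 in the neuron libraries and 5.74 and 6.00 in the proliferating libraries. With 4 libraries, of which those of a number resemble each other, this likeness is a description only.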
